A study of Mus with 21 samples.

Results

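Voltage-gated sodium and calcium channels are the membrane proteins that turn a change in voltage into a flow of ions. Sodium channels open first and carry the upstroke of the action potential, and calcium channels convert that depolarization into calcium entry, which triggers transmitter release and signalling to the nucleus. Each channel has a pore-forming alpha subunit and accessory subunits that set how many channels reach the surface and how they gate. In the fetal brain *Scn2a* and *Scn3a* are known as the early neuronal sodium channels, while *Scn1a* and *Scn8a* gain weight as neurons mature.

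The genes described here are every row of the count table whose symbol is *Scn*, a number and a or b, or *Cacna*, *Cacnb* or *Cacng* with its suffix, 40 of 55335 genes. Membership follows the name and not a measured value, but the set was chosen with earlier results of these data known. By role they are 10 sodium channel alpha genes, 4 sodium channel beta genes, 10 calcium channel alpha1 genes, 4 alpha2delta genes, 4 calcium channel beta genes and 8 gamma genes. RNA was sequenced from the whole brain of female mouse embryos at E17.5, and the study asked whether a lower dose of *Wapl* corrects the transcript changes of *Nipbl* heterozygotes. NIPBL loads the cohesin complex on chromosomes and WAPL takes it off. The 5 *WT* embryos were Wapl +/+; Nipbl +/+, and the 3 *Nipbl*+/- embryos were Wapl +/+; Nipbl +/delta. The 7 *Wapl* delta/+ embryos were Wapl delta/+ or +/delta with Nipbl +/+, and the 6 double heterozygotes carried a Wapl delta allele together with Nipbl +/delta. The *Nipbl* deletion came from sires in which *Stra8-icre* recombines a floxed allele in the male germ line. The *Wapl* delta allele, made with *E2a-Cre*, lacks the promoter and exons 1 and 2. Both losses are therefore inherited by all cells of the embryo and are not limited to neurons. Each library is 1 embryo. A further *Nipbl*+/- library, left out by the authors, was not analysed here, and the labels give neither litter nor cross.

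Total counts ran from 25682566 to 35818767 per library. *Nipbl* RNA stood at 54.3% ± 4.52 (SD, n = 3) of the *WT* mean in *Nipbl*+/- brains and at 54.8% ± 1.79 (SD, n = 6) in double heterozygotes. *Wapl* RNA stood at 46.7% ± 4.51 (SD, n = 7) in *Wapl* delta/+ brains and at 49.4% ± 1.9 (SD, n = 6) in double heterozygotes. All 8 neuronal markers were present in every library. A divide of 20 counts for the mitochondrial gene *mt-Nd3* separated 2 *WT*, 5 *Wapl* delta/+ and 2 double heterozygous libraries with high counts from the others. No *Nipbl*+/- library was in the high set. Where a *Wapl* delta allele was present, every library whose genotype label writes delta in the first position was in the low set, and every library labelled +/delta was in the high set. The labels do not say what this order means, so values within each set are given beside the pooled counts, and the set cannot be told apart from whatever the order records.

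The level given here is CPM, the reads of a gene relative to all reads of its library after TMM scaling. Of the 40 genes, 33 had a mean of at least 1 CPM over the 21 libraries. Levels are compared between libraries of 1 gene and not between genes, since transcript lengths were not used. The 7 genes below 1 CPM were *Scn4a*, the skeletal muscle sodium channel, *Scn7a*, an atypical sodium channel, *Cacna1s*, the skeletal muscle calcium channel, *Cacna1f* and *Cacna2d4*, known from retinal photoreceptors, and the gamma genes *Cacng1* and *Cacng6*. *Scn4a* had 0 to 9 counts per library and *Cacng6* had 1 to 8. The other 5 had between 13 and 127 counts. None of the 7 passed the test in a comparison with *WT*, by edgeR or DESeq2, and 0 of them had an unadjusted p below 0.05 in edgeR.

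In *Nipbl*+/- brains 17 of the 40 channel genes changed, 12 lower and 5 higher. A gene is called changed when edgeR's quasi-likelihood test gives a Benjamini-Hochberg adjusted p below 0.10 over the 30552 genes tested, and 11.2% of those were called. The lower calls made up 6.96% of all tested genes and the higher calls 4.25%. Among genes that averaged 1 CPM or more, 18.6% were called, against 17 of 33 channel genes. The median log2 fold change was -0.13 over the 40 channel genes and -0.01 over all tested genes, and 31 of the 40 had a value below 0. Without *Nipbl*+/- library 1 or without library 3 the count fell to 9, and without library 2 it was 23. Within the low *mt-Nd3* libraries, 3 against 3, it was 7, and in 1 fit of all 4 groups, with 5.43% of all genes called, it was 6. In whole tissue, fewer cells of a type and less RNA per cell cannot be told apart. Of the marker lists, 4 of 8 neuronal genes were lower in *Nipbl*+/- brains, with a summed level of 4813 to 5136 CPM against 5242 to 5425 CPM in *WT*. Of the other brain lists, 3 of 8 progenitor genes were higher, with sums of 381 to 519.8 CPM against 387 to 427 CPM in *WT*. There were 3 of 5 oligodendrocyte precursor genes lower, with sums of 153 to 188 CPM against 199 to 219.6 CPM, and 4 of 5 astrocyte genes lower, with sums of 343 to 436 CPM against 478 to 523 CPM. Of the lists for cells from outside the neural tissue, edgeR called 0 of 7 muscle, 0 of 5 photoreceptor and pineal, 0 of 6 pituitary and 0 of 5 blood markers in *Nipbl*+/- brains, with 1, 0, 2 and 0 at an unadjusted p below 0.05. In the same comparison 1 of 6 sensory ganglion and 2 of 5 endothelial and pericyte markers were called. Their part in the channel changes was not tested.

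In *Wapl* delta/+ brains 5 of the 40 genes changed, all lower and all of them pore-forming genes. The share called over all tested genes was 2.22%, with 0.769% higher and 1.45% lower, and 3.5% among genes that averaged 1 CPM or more. The median log2 fold change was -0.04 for the channel genes against 0.00 for all genes. Of the 20 accessory genes 0 were called by edgeR, with 4 at an unadjusted p below 0.05, while DESeq2 called *Cacnb1* and *Cacng4*. The count of 5 fell to 0 without *WT* library 1 or *WT* library 2, to 2 without *WT* library 4, to 1 without *WT* library 5 and to 3 without *Wapl* delta/+ library 4 or 5. Within the high *mt-Nd3* set, 5 against 2 libraries, 4 genes were called, and within the low set, 2 against 3, none was. By DESeq2 the count was 9, and in 1 fit of all 4 groups, which called 7 genes in all, it was 0. None of the 8 neuronal markers was called lower by edgeR, with 1 at an unadjusted p below 0.05, and their sum ran from 4992 to 5283 CPM. Of the other lists, 2 of 5 endothelial and pericyte markers were higher and 1 of 6 pituitary markers was lower. No progenitor or astrocyte marker was called, but 4 of 8 progenitor and 4 of 5 astrocyte markers had an unadjusted p below 0.05. Their sums in *Wapl* delta/+ brains were 398 to 531 CPM for progenitors and 396 to 544 CPM for astrocytes, and their part in the channel changes was not tested.

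In double heterozygotes edgeR called 4 of the 40 genes lower than in *WT* and 0 higher. The share called over all genes was 3.28%, with 2.46% lower and 0.812% higher, and 5.42% among genes that averaged 1 CPM or more. The median log2 fold change was -0.06 for the channel genes. *Cacna1i*, *Cacng3* and *Cacng5* were among them. Without *WT* library 3, 4 or 5 or double heterozygous library 1 or 4 the count was 2, and without double heterozygous library 3 or 5 it was 9. Within the low *mt-Nd3* set, 4 against 3 libraries, 2 genes were called, and within the high set, 2 against 2, none was. DESeq2 called 7, of which *Cacnb3* was higher and 6 were lower, and 1 fit of all 4 groups called 2. Of the markers, 1 of 8 neuronal genes, 4 of 5 oligodendrocyte precursor genes and 3 of 5 astrocyte genes were lower, with neuronal sums of 4916 to 5664 CPM, and their part was not tested. All 3 comparisons use the same 5 *WT* libraries, so the values below are set side by side and are not independent of each other. The plot of fold changes by subfamily gives 31 of the genes that averaged 1 CPM or more.

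**Figure D1:**
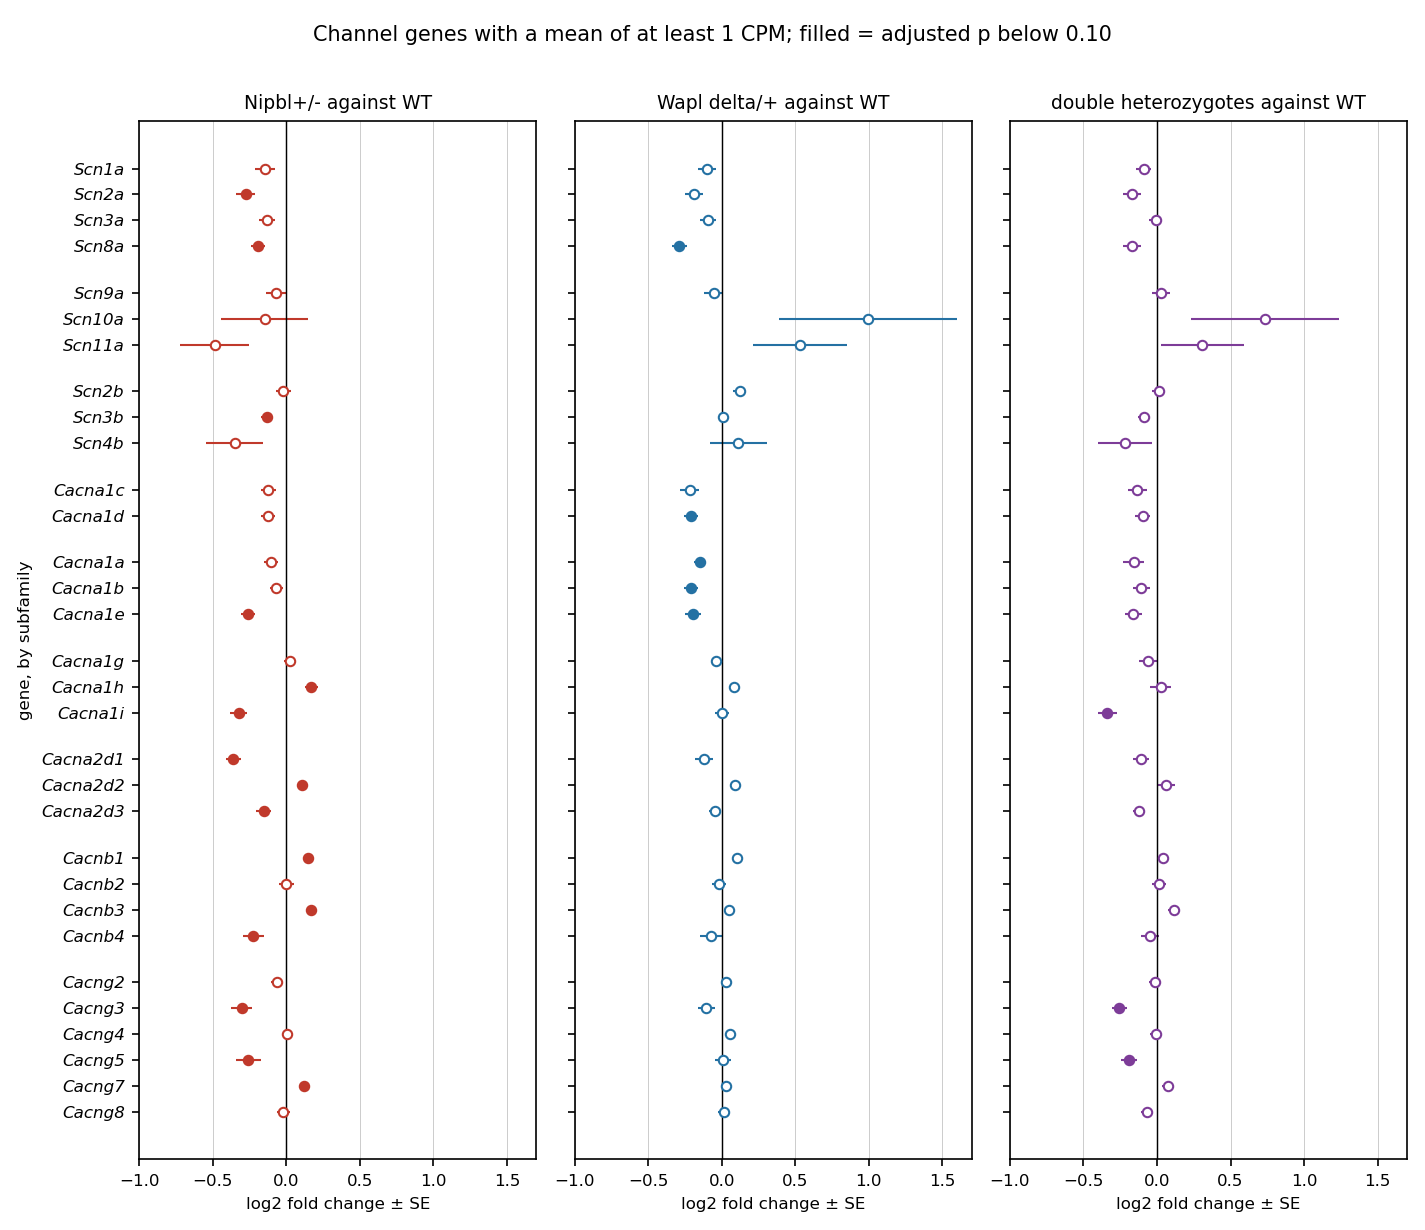
log2 fold change against WT (x axis, with SE) of 31 channel genes that averaged 1 CPM or more (y axis, by subfamily), in Nipbl+/- (left), Wapl delta/+ (middle) and double heterozygous brains (right), with filled points for an adjusted p below 0.10. The filled points are 10 lower and 5 higher genes on the left, 5 lower genes in the middle and 3 lower genes on the right.

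All 4 central sodium channel alpha genes had a fold change below 0 in *Nipbl*+/- brains, and 2 of them, *Scn2a* and *Scn8a*, passed the test. *Scn3a*, *Scn2a*, *Scn1a*, *Scn9a* and *Scn7a* lie next to each other in 1 cluster on chromosome 2, between 65457118 and 66784910 in GRCm38.p6, and *Scn8a* lies alone at chr15:100869863-101045938. The genes of the cluster are similar in sequence, and the handling of reads that match more than 1 of them is not given in the sources used here.

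*Scn2a* (ENSMUSG00000075318.12, chr2:65620764-65767447) encodes the main sodium channel of immature axons. It had 114, 101, 96.1, 102 and 102 CPM in the *WT* libraries and 75.2, 97.0 and 84.2 CPM in the *Nipbl*+/- libraries. In *Wapl* delta/+ brains it ran from 76.5 to 103 CPM around a median of 94.8, and in double heterozygotes from 82.2 to 102 CPM around a median of 87.4. *Nipbl*+/- libraries 1 and 3 lay below every *WT* library and library 2 lay within their range. The log2 fold change was -0.28 ± 0.064 (SE) in *Nipbl*+/- brains (edgeR adjusted p = 0.0119). The *Wapl* delta/+ value was -0.19 ± 0.062 (adjusted p = 0.148) and that of double heterozygotes -0.17 ± 0.061 (adjusted p = 0.187), neither past the threshold in edgeR. DESeq2 called *Scn2a* in *Wapl* delta/+ brains.

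*Scn8a* (ENSMUSG00000023033.14), the channel that takes over at mature initial segments and nodes, was the central sodium channel gene that passed the test in both single heterozygotes. *WT* libraries had 143, 134, 130.0, 135 and 142 CPM and *Nipbl*+/- libraries 108, 124 and 127 CPM, with no overlap. *Wapl* delta/+ libraries ran from 98.01 to 134 CPM around a median of 111, and 6 of the 7 lay below every *WT* library, the exception being library 2. The fold change was -0.19 ± 0.049 in *Nipbl*+/- brains (adjusted p = 0.0186) and -0.29 ± 0.053 in *Wapl* delta/+ brains (adjusted p = 0.0381). Double heterozygotes ran from 98.1 to 138 CPM around a median of 119.9, with libraries 3 and 4 inside the *WT* range and library 6 lowest, and a fold change of -0.17 ± 0.063 (adjusted p = 0.217).

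*Scn1a* (ENSMUSG00000064329.13, chr2:66270781-66440837), best known from inhibitory interneurons, did not pass the test in a comparison with *WT*. Its *WT* libraries had 33.5, 31.2, 31.1, 31.1 and 32.5 CPM and its *Nipbl*+/- libraries 26.4, 33.7 and 26.7 CPM. The *Wapl* delta/+ libraries ran from 25.2 to 33.3 CPM around a median of 30.4 and the double heterozygotes from 27.0 to 32.5 CPM around a median of 29.4. *Nipbl*+/- library 2 lay above every *WT* library while the other *Nipbl*+/- libraries lay below them all. Fold changes were -0.14 ± 0.067, -0.10 ± 0.062 and -0.09 ± 0.049 in the 3 comparisons, with adjusted p of 0.236, 0.46 and 0.439.

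*Scn3a* (ENSMUSG00000057182.15, chr2:65457118-65567591), a channel of embryonic neurons and progenitors, did not pass the test either. It had 117, 106, 98.1, 99.5 and 106 CPM in *WT* and 87.6, 100.5 and 101 CPM in *Nipbl*+/- brains. *Wapl* delta/+ brains ran from 81.5 to 106 CPM around a median of 100.2 and double heterozygotes from 100.1 to 109 CPM around a median of 104. Each group overlapped *WT*, and every double heterozygous library lay inside the *WT* range. Fold changes were -0.13 ± 0.055 (adjusted p = 0.169) in *Nipbl*+/- brains and -0.09 ± 0.053 (adjusted p = 0.418) in *Wapl* delta/+ brains. In double heterozygotes the value was -0.01 ± 0.043 (adjusted p = 0.966), smaller than its SE.

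*Scn9a*, a peripheral channel that is also found in hypothalamic neurons, had fold changes of -0.07, -0.06 and 0.03, none called.

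*Scn10a* and *Scn11a*, the channels of pain-sensing ganglion neurons, and *Scn7a* were highest in a few libraries. *Scn10a* stood at 8.14 CPM in *Wapl* delta/+ library 4 and 4.98 CPM in double heterozygous library 4. *Scn7a* stood at 3.87 and 3.01 CPM and *Scn11a* at 3.23 and 2.15 CPM in the same libraries. Double heterozygous library 3 followed with 2.496 CPM of *Scn10a*, 1.74 CPM of *Scn7a* and 1.67 CPM of *Scn11a*. The summed level of 6 sensory ganglion markers (*Avil*, *Prph*, *Calca*, *P2rx3* and *Isl1* among them) was 100.6 CPM and 92.6 CPM in these libraries and 46.3 to 61.4 CPM in the other 19. Fitted fold changes of these genes reached 0.99 (*Scn10a* in *Wapl* delta/+ brains, adjusted p = 0.451), and edgeR called none of them in a comparison with *WT*. The part of ganglion tissue in these values was not tested.

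**Figure D2:**
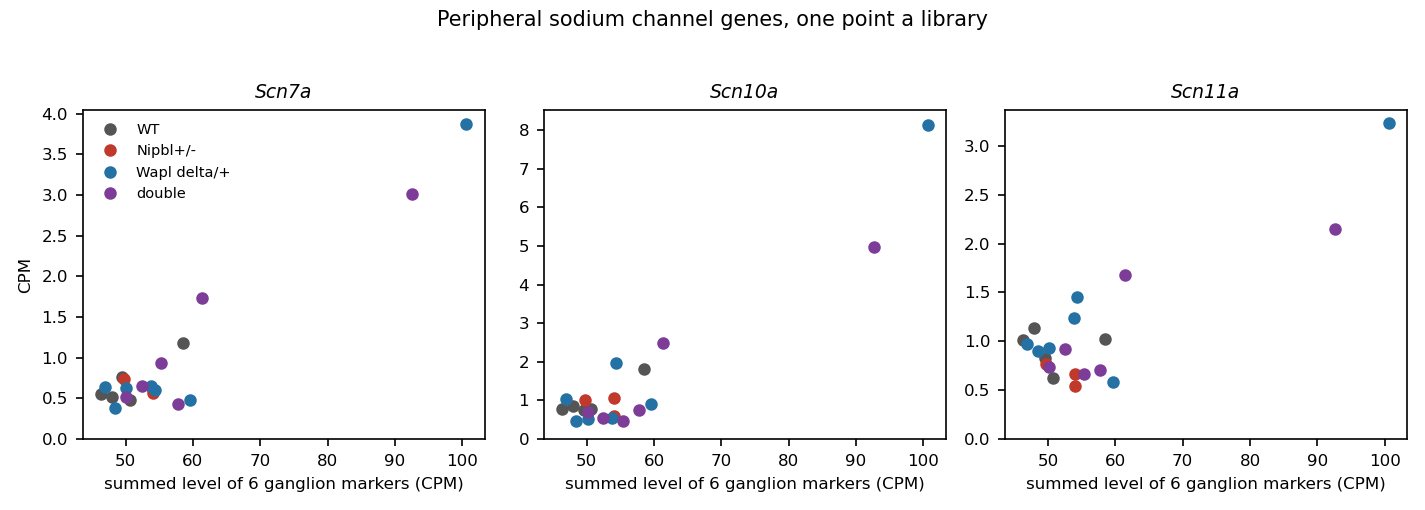
Level of Scn7a, Scn10a and Scn11a (y axis, CPM) against the summed level of 6 sensory ganglion markers (x axis, CPM), with 1 point for each of the 21 libraries, coloured by genotype. Wapl delta/+ library 4 and double heterozygous library 4 stand apart at sums of 100.6 and 92.6 CPM and have the highest levels of all 3 channel genes.

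The sodium channel beta genes encode single-pass subunits that speed gating and act as adhesion molecules. *Scn3b* was lower in *Nipbl*+/- brains, and *Scn2b* and *Scn4b* were not called. *Scn3b* (ENSMUSG00000049281.16, chr9:40269216-40291618), the beta subunit of embryonic neurons, had 293, 271, 267, 272 and 275 CPM in *WT* libraries and 246, 260.0 and 249.6 CPM in *Nipbl*+/- libraries. *Wapl* delta/+ brains ran from 262 to 285 CPM around a median of 279.6 and double heterozygotes from 245 to 264 CPM around a median of 259.5. All *Nipbl*+/- and all double heterozygous libraries lay below every *WT* library, whereas the *Wapl* delta/+ libraries overlapped *WT*. EdgeR gave -0.13 ± 0.037 in *Nipbl*+/- brains (adjusted p = 0.0344), a call lost in 6 of 17 alternative settings. It gave -0.09 ± 0.037 in double heterozygotes (adjusted p = 0.26, called by DESeq2) and 0.01 ± 0.03 in *Wapl* delta/+ brains.

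*Scn4b* had a mean of 1.25 CPM over all libraries, and *Scn2b* had fold changes of -0.02, 0.12 and 0.01.

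Of the L-type (Cav1) alpha1 genes, which couple activity to transcription and pacemaking, *Cacna1d* was lower in *Wapl* delta/+ brains and none was called in *Nipbl*+/- brains or double heterozygotes. EdgeR gave 2 of the 4 an unadjusted p below 0.05 in *Nipbl*+/- brains, and DESeq2 called none of the 4. *Cacna1d* (chr14:30039941-30491156) ran from 75.1 to 95.5 CPM in *Wapl* delta/+ brains against 88.3 to 97.0 CPM in *WT* (log2 fold change -0.21 ± 0.047, adjusted p = 0.0477), and 6 of 7 *Wapl* delta/+ libraries lay below every *WT* library. Its value was -0.13 ± 0.049 in *Nipbl*+/- brains and in double heterozygotes -0.10 ± 0.051.

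*Cacna1c* (ENSMUSG00000051331.15, chr6:118587240-119197384) encodes the main L-type pore of the brain. It had 150.5, 145, 143, 152 and 153 CPM in *WT* and 122, 144 and 145 CPM in *Nipbl*+/- brains. *Wapl* delta/+ libraries ran from 107 to 162 CPM around a median of 125, and double heterozygotes from 113 to 158 CPM around a median of 136. Library 2 of the *Wapl* delta/+ group lay above every *WT* library and the other 6 lay below them all. The fold change of -0.22 ± 0.064 in *Wapl* delta/+ brains stood just outside the threshold (adjusted p = 0.106), and DESeq2 called it. Values were -0.12 ± 0.05 in *Nipbl*+/- brains (adjusted p = 0.166) and -0.13 ± 0.062 in double heterozygotes (adjusted p = 0.359).

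The Cav2 genes *Cacna1a* (P/Q-type), *Cacna1b* (N-type) and *Cacna1e* (R-type) encode the presynaptic channels that trigger transmitter release, and all 3 were lower in *Wapl* delta/+ brains. Among all tested genes 1.45% were called lower there. The calls were lost in 13 of 22 alternative settings for *Cacna1a*, 11 of 22 for *Cacna1e* and 5 of 22 for *Cacna1b*. *Cacna1e* alone of the 3 was called in *Nipbl*+/- brains, and in double heterozygotes edgeR and DESeq2 called 0 of 3, with 2 at an unadjusted p below 0.05 in edgeR.

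*Cacna1e* (ENSMUSG00000004110.17, chr1:154390806-154884785) had 209.8, 209, 187, 196 and 197 CPM in *WT* and 152, 174 and 177 CPM in *Nipbl*+/- brains, with no overlap. *Wapl* delta/+ libraries ran from 145 to 194 CPM around a median of 179 and double heterozygotes from 157 to 208 CPM around a median of 177. The fold change was -0.26 ± 0.05 in *Nipbl*+/- brains (adjusted p = 0.00294) and -0.20 ± 0.052 in *Wapl* delta/+ brains (adjusted p = 0.0764). In double heterozygotes it was -0.16 ± 0.059 (adjusted p = 0.211), with 5 of 6 libraries below every *WT* library and library 3 inside the *WT* range.

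*Cacna1b* (ENSMUSG00000004113.18, chr2:24603860-24763200) had 244, 231, 236, 238 and 236 CPM in *WT*, a spread of 4.61 CPM (SD), and 207, 241 and 232 CPM in *Nipbl*+/- brains. *Wapl* delta/+ libraries ran from 179 to 237 CPM around a median of 205, with 6 of 7 below every *WT* library. Double heterozygotes ran from 186 to 246 CPM around a median of 229, and their libraries 5 and 6 lay far below the other 4. The change was -0.21 ± 0.045 in *Wapl* delta/+ brains (adjusted p = 0.0434), -0.07 ± 0.044 in *Nipbl*+/- brains (adjusted p = 0.425) and -0.11 ± 0.06 in double heterozygotes (adjusted p = 0.478).

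*Cacna1a* (ENSMUSG00000034656.18, chr8:84338631-84640251) had 132, 127, 136, 136 and 131 CPM in *WT* and 111, 133 and 126 CPM in *Nipbl*+/- brains. It ran from 109.6 to 131 CPM around a median of 118 in *Wapl* delta/+ brains and from 88.3 to 134 CPM around a median of 119.9 in double heterozygotes. Of the *Wapl* delta/+ libraries 6 of 7 lay below every *WT* library, library 7 being the exception, and double heterozygous library 5 was the lowest of all. The fold change was -0.15 ± 0.038 in *Wapl* delta/+ brains (adjusted p = 0.0716). It was -0.10 ± 0.05 in *Nipbl*+/- brains (adjusted p = 0.251) and -0.16 ± 0.072 in double heterozygotes (adjusted p = 0.33).

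The Cav3 genes encode low-threshold T-type channels, which open near rest and support bursting. They differed among themselves in *Nipbl*+/- brains, where *Cacna1i* was lower, *Cacna1h* was higher and *Cacna1g* was not called. *Cacna1i* (ENSMUSG00000022416.15, chr15:80287238-80398292), the T-type channel of the thalamic reticular nucleus, had 52.6, 47.7, 52.3, 51.9 and 50 CPM in *WT* and 37.5, 45.6 and 39.4 CPM in *Nipbl*+/- brains. *Wapl* delta/+ libraries ran from 46.6 to 56.0 CPM around a median of 52.3, and double heterozygotes from 33.0 to 46.1 CPM around a median of 39.7. Every library with the *Nipbl* deletion, in either group, lay below every *WT* library and below every *Wapl* delta/+ library. Fold changes were -0.32 ± 0.057 in *Nipbl*+/- brains (adjusted p = 0.00159) and -0.34 ± 0.065 in double heterozygotes (adjusted p = 0.0091). The *Wapl* delta/+ value was 0.00 ± 0.047 (adjusted p = 1). Among 17 alternative settings of the *Nipbl*+/- comparison, all kept the call, with values from -0.42 to -0.26.

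*Cacna1h* (ENSMUSG00000024112.16, chr17:25374285-25436334) moved the other way. It had 229, 217, 253, 234 and 230.1 CPM in *WT* and 257, 259 and 272 CPM in *Nipbl*+/- brains, with no overlap. *Wapl* delta/+ brains ran from 239.5 to 253 CPM around a median of 245 and double heterozygotes from 175 to 262 CPM around a median of 243. Apart from library 5, at 175 CPM, the double heterozygous libraries had at least 234 CPM. The fold change was 0.17 ± 0.044 in *Nipbl*+/- brains (adjusted p = 0.0216), 0.08 ± 0.034 in *Wapl* delta/+ brains (adjusted p = 0.235) and 0.03 ± 0.072 in double heterozygotes (adjusted p = 0.931). *Cacna1g*, the T-type channel of thalamic relay cells, had values of 0.03, -0.04 and -0.06.

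**Figure D3:**
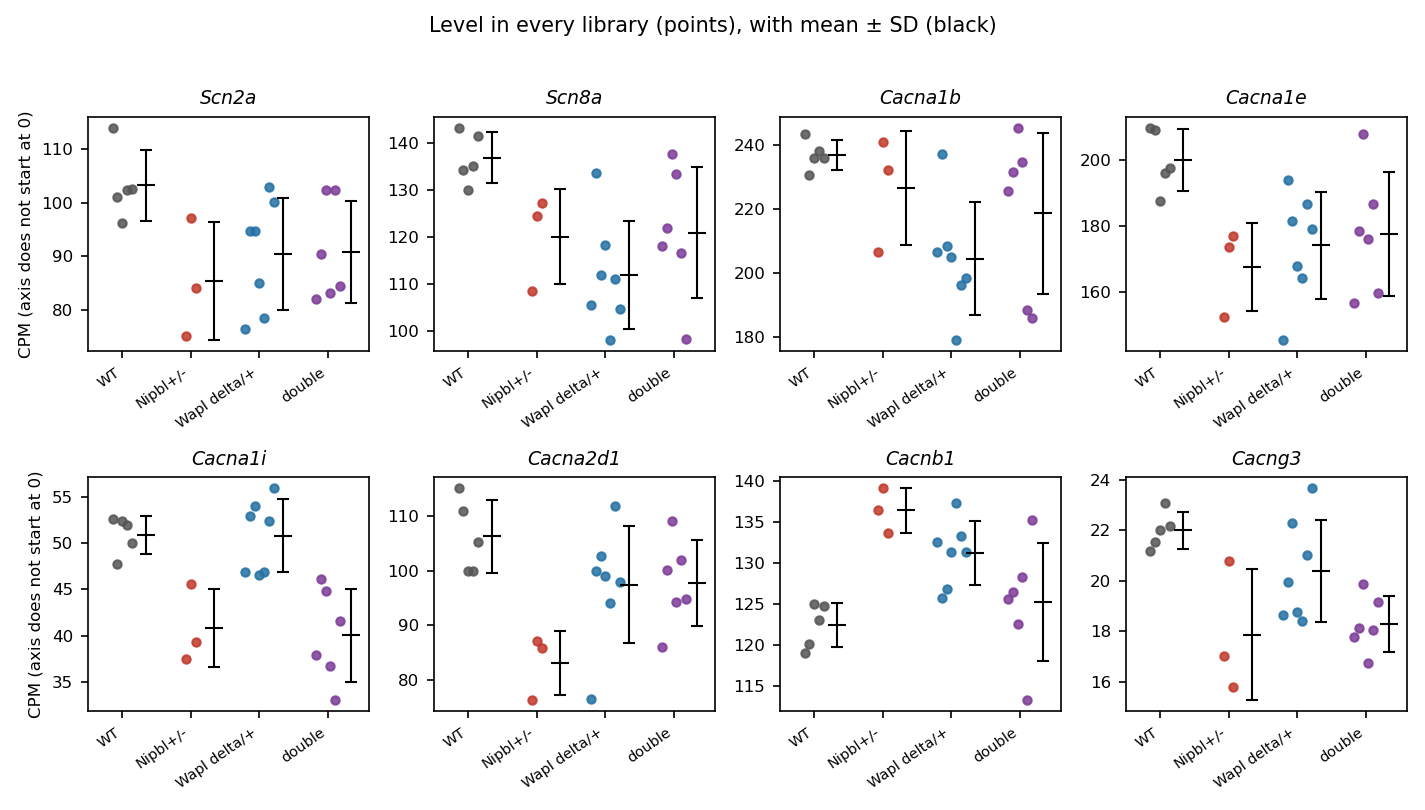
Level (y axis, CPM, not starting at 0) of 8 channel genes in every library (points) of the 4 genotype groups (x axis), with the group mean ± SD in black. Cacna1i was lower in all 3 Nipbl+/- and all 6 double heterozygous libraries than in any WT or Wapl delta/+ library, Cacna1b was below WT in 6 of 7 Wapl delta/+ libraries, and Cacnb1 was above WT in all 3 Nipbl+/- and all 7 Wapl delta/+ libraries.

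The alpha2delta subunits bring calcium channels to the surface and to synapses, and 3 of the 4 genes changed in *Nipbl*+/- brains, with *Cacna2d1* and *Cacna2d3* lower and *Cacna2d2* higher. *Cacna2d1* (ENSMUSG00000040118.15, chr5:15934264-16374511), the binding site of gabapentin, had the smallest adjusted p of the 40 genes. Its *WT* libraries had 115, 111, 100, 100 and 105 CPM and its *Nipbl*+/- libraries 76.3, 87.1 and 85.9 CPM, with no overlap. *Wapl* delta/+ libraries ran from 76.5 to 112 CPM around a median of 99.0 and double heterozygotes from 86.0 to 109 CPM around a median of 97.5. The lowest *Wapl* delta/+ library, number 1, lay among the *Nipbl*+/- libraries. The fold change was -0.36 ± 0.053 in *Nipbl*+/- brains (adjusted p = 0.000415), a fall of 22.1%. It was -0.12 ± 0.061 in *Wapl* delta/+ brains (adjusted p = 0.346) and -0.11 ± 0.053 in double heterozygotes (adjusted p = 0.375).

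*Cacna2d2* had a mean of 183 ± 7.09 CPM (SD, n = 5) in *WT* and 198 ± 2.92 CPM (SD, n = 3) in *Nipbl*+/- brains, with all *Nipbl*+/- libraries above every *WT* library (log2 fold change 0.11 ± 0.037, adjusted p = 0.0884). Its *Wapl* delta/+ value of 0.09 ± 0.035 was not called, and its *Nipbl*+/- call was lost in 11 of 17 alternative settings. *Cacna2d3* spans 818 kb, more than the other 39 genes, and fell by 10.1% in *Nipbl*+/- brains (log2 fold change -0.15 ± 0.05, adjusted p = 0.0702), with 2 of 3 libraries below every *WT* library. All 6 double heterozygous libraries lay below every *WT* library for *Cacna2d3*, and the test gave -0.12 ± 0.04 with an adjusted p of 0.159. The *Nipbl*+/- call of *Cacna2d3* was lost in 10 of 17 alternative settings, and that of *Cacna2d1* in 0 of 17.

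The calcium channel beta subunits sit on the inner face of the pore and raise its surface level. Among them *Cacnb3* and *Cacnb1* were higher in *Nipbl*+/- brains, *Cacnb4* was lower and *Cacnb2* was not called. *Cacnb3* (ENSMUSG00000003352.14, chr15:98628436-98644536) had 264, 246, 265, 257 and 260.0 CPM in *WT* and 298, 292 and 286 CPM in *Nipbl*+/- brains, with no overlap. Its *Wapl* delta/+ libraries spread from 256 to 277 CPM around a median of 266 and double heterozygotes from 255 to 300.2 CPM around a median of 279. Its fold change was 0.17 ± 0.035 in *Nipbl*+/- brains (adjusted p = 0.00552), 0.05 ± 0.031 in *Wapl* delta/+ brains (adjusted p = 0.466) and 0.11 ± 0.04 in double heterozygotes (adjusted p = 0.195). The *Nipbl*+/- call was kept in all 17 alternative settings.

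*Cacnb1* (ENSMUSG00000020882.17, chr11:98001508-98023034) had 119, 120.2, 125, 123 and 125 CPM in *WT* and 136, 139 and 134 CPM in *Nipbl*+/- brains. *Wapl* delta/+ brains ran from 126 to 137 CPM around a median of 131, and double heterozygotes from 113 to 135 CPM around a median of 126. All *Nipbl*+/- and all *Wapl* delta/+ libraries lay above every *WT* library, whereas 4 of the 6 double heterozygous libraries did and library 5 lay below them all. The change was 0.15 ± 0.036 in *Nipbl*+/- brains (adjusted p = 0.0139) and 0.10 ± 0.03 in *Wapl* delta/+ brains (adjusted p = 0.111, called by DESeq2). In double heterozygotes it was 0.04 ± 0.04 (adjusted p = 0.717). *Cacnb4*, whose loss causes the lethargic phenotype of mice, fell by 14.4% in *Nipbl*+/- brains (log2 fold change -0.22 ± 0.073, adjusted p = 0.0719), with 1 of the 3 libraries inside the *WT* range. It was not called in *Wapl* delta/+ brains (-0.07 ± 0.077) or double heterozygotes (-0.05 ± 0.063). The *Nipbl*+/- call of *Cacnb4* was lost in 7 of 17 alternative settings.

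Of the 8 gamma genes, 6 encode TARPs, which carry AMPA receptors to synapses rather than forming calcium channels. Of these *Cacng3* and *Cacng5* were lower in *Nipbl*+/- brains, *Cacng7* was higher and *Cacng2*, *Cacng4* and *Cacng8* were not called. *Cacng3* (ENSMUSG00000066189.9, chr7:122671744-122769393), a TARP of cortical neurons, had 21.2, 21.6, 22.0, 23.1 and 22.2 CPM in *WT* and 17.0, 20.8 and 15.8 CPM in *Nipbl*+/- brains. *Wapl* delta/+ brains ran from 18.4 to 23.7 CPM around a median of 19.9 and double heterozygotes from 16.8 to 19.9 CPM around a median of 18.1. No *Nipbl*+/- or double heterozygous library reached the *WT* range, and 5 of 7 *Wapl* delta/+ libraries lay below it. The test gave -0.30 ± 0.072 in *Nipbl*+/- brains (adjusted p = 0.0134), -0.26 ± 0.049 in double heterozygotes (adjusted p = 0.00932) and -0.10 ± 0.058 in *Wapl* delta/+ brains (adjusted p = 0.401).

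*Cacng7* (ENSMUSG00000069806.5, chr7:3332027-3368221) had 120.0, 119.7, 125, 124 and 126 CPM in *WT* and 133, 135 and 134 CPM in *Nipbl*+/- brains, where the 3 libraries agreed within 0.936 CPM (SD) and lay above every *WT* library. The *Wapl* delta/+ libraries spread from 119 to 127 CPM around a median of 126 and double heterozygotes from 120.0 to 136 CPM around a median of 129. Its fold change was 0.12 ± 0.035 in *Nipbl*+/- brains (adjusted p = 0.0452), 0.03 ± 0.029 in *Wapl* delta/+ brains and 0.08 ± 0.04 in double heterozygotes (adjusted p = 0.719 and 0.423). *Cacng5* fell in *Nipbl*+/- brains (-0.26 ± 0.084, adjusted p = 0.0711) and in double heterozygotes (-0.19 ± 0.055, adjusted p = 0.0944), and had 0.01 ± 0.053 in *Wapl* delta/+ brains. For *Cacng5*, 2 of 3 *Nipbl*+/- and 4 of 6 double heterozygous libraries lay below every *WT* library. Its calls were lost in 10 of 17 alternative settings in *Nipbl*+/- brains and in 12 of 21 in double heterozygotes.

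Between double heterozygotes and *Nipbl*+/- brains, which differ by the *Wapl* allele, edgeR called 0 of 40 channel genes and 0.00655% of all tested genes. At an unadjusted p below 0.05 there were 4 channel genes, beside 4.12% of all genes, and DESeq2 also called 0. The smallest p was that of *Cacna2d1*, which was 0.24 ± 0.069 log2 units higher in double heterozygotes (adjusted p = 0.971), with 5 of 6 libraries above every *Nipbl*+/- library. *Cacnb4* followed at 0.16 ± 0.066 (adjusted p = 0.971). For *Cacna1i* the difference was -0.03 ± 0.091 (adjusted p = 0.991).

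Between double heterozygotes and *Wapl* delta/+ brains, which differ by the *Nipbl* allele, 1 channel gene was called, lower, against 1.02% of all tested genes, of which 0.812% were lower. It was *Cacna1i*, with a log2 fold change of -0.34 ± 0.068 (adjusted p = 0.0225), with no overlap between the 6 and the 7 libraries. *Cacng5* stood just outside the threshold, at -0.20 ± 0.053 (adjusted p = 0.114), also without overlap. The call for *Cacna1i* was lost within the low and within the high *mt-Nd3* libraries, which leave 2 to 5 libraries a group.

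The interaction term, which tests whether the double heterozygotes depart from the sum of the single changes, called 0 of 40 channel genes and 0% of all genes by edgeR. At an unadjusted p below 0.05 were 11 of the 40, beside 13.8% of all genes. DESeq2 called 4, *Cacna1e*, *Cacna2d1*, *Cacnb1* and *Scn8a*, beside 2.6% of all genes. The interaction was -0.25 ± 0.057 for *Cacnb1* and 0.33 ± 0.098 for *Cacna2d1*, both with an edgeR adjusted p of 0.2. In both genes its sign was opposite to that of the single changes, which were 0.15 and 0.10 for *Cacnb1* and -0.36 and -0.12 for *Cacna2d1*. Without double heterozygous library 6, edgeR called 3 channel genes, beside 3.09% of all genes. Without *Wapl* delta/+ library 2 it called 1, beside 0.828%.

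Libraries of 1 genotype differed in how far the channel genes moved together. The median log2 ratio to the *WT* mean over the 16 pore-forming genes that averaged 1 CPM or more was -0.27 in *Nipbl*+/- library 1, and -0.05 and -0.06 in libraries 2 and 3. In *Wapl* delta/+ brains it was -0.29 in library 1 and -0.30 in library 5, and between -0.13 and 0.00 in the other 5. In double heterozygotes it was between -0.29 and -0.21 in libraries 1, 5 and 6 and 0.05 in library 3, where 3 of the 16 genes were below the *WT* mean. *WT* libraries ran from -0.03 to 0.04. Medians over the accessory genes ran from -0.11 to 0.09 over all libraries.

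Marker sums moved with these medians in part of the libraries. The progenitor sum was 387 to 427 CPM in *WT*. It was 519.8 CPM in *Nipbl*+/- library 1, 507 CPM in *Wapl* delta/+ library 1 and 531 CPM in *Wapl* delta/+ library 5, the libraries of those groups with the lowest pore-forming medians. Double heterozygous library 4, at 510.3 CPM, and *Nipbl*+/- library 3, at 497 CPM, had medians of -0.05 and -0.06. Double heterozygous library 5, with a progenitor sum of 389 CPM and the highest neuronal sum, 5664 CPM, had a median of -0.26. Libraries 1 and 6 of that group, with medians of -0.21 and -0.29, had progenitor sums of 487 and 483 CPM. Its libraries 2 and 3, with medians of -0.09 and 0.05, had 433 and 404 CPM. The part of cell composition in the channel changes was not tested.

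**Figure D4:**
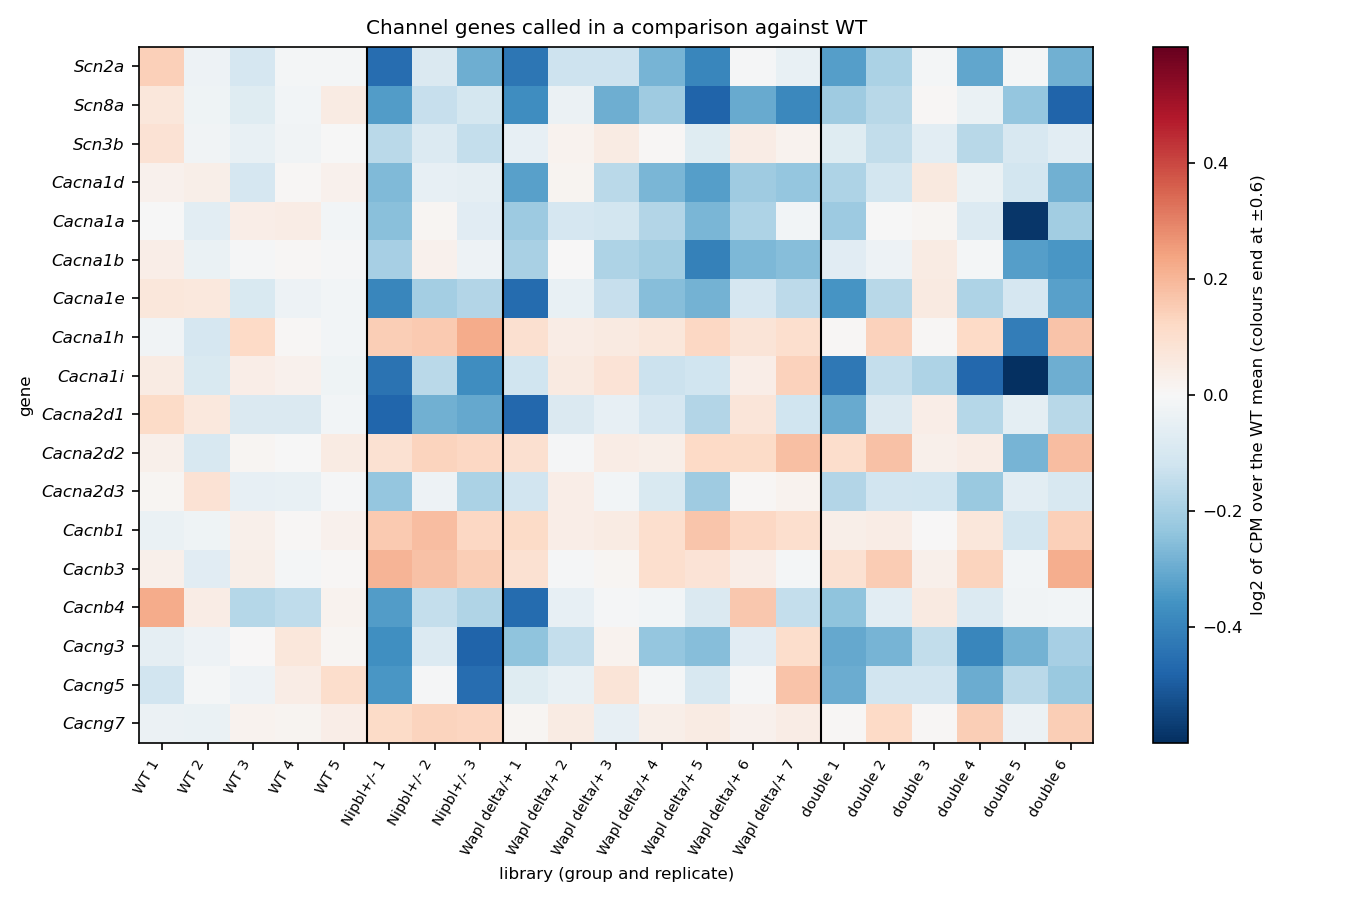
log2 of the level over the WT mean (colour, ending at ±0.6) for 18 channel genes called in a comparison against WT (rows) in the 21 libraries (columns, by group and replicate). Blue cells are lower and red cells higher than the WT mean. The medians that follow are over the 16 pore-forming genes that averaged 1 CPM or more, not all of them drawn here. Double heterozygous library 3 has a median of 0.05. Nipbl+/- library 1 and Wapl delta/+ libraries 1 and 5 have the lowest medians of their groups, -0.27, -0.29 and -0.30.

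A list of 29 genes for proteins that bind or regulate these channels was read the same way. The list was made with earlier results of these data known, so its counts are not independent of them. In *Nipbl*+/- brains 11 of 29 were lower and none higher, beside 6.96% of all genes called lower. Among the 17303 genes that averaged 1 CPM or more, 2001 were called lower. Of the 5 sodium channel modulators on the list, 3 were lower, *Fgf12*, *Fgf13* and *Fgf14*, intracellular proteins that bind the channel tail, while *Fgf11* of the same family and *Nedd4l* were not called. *Fgf12* was at -0.34 ± 0.05 (adjusted p = 0.000453). *Nrcam*, an adhesion molecule of the axon initial segment, had -0.21 ± 0.038 (adjusted p = 0.00245). *Cask* and *Rims1*, which hold calcium channels at release sites, had -0.21 ± 0.043 (adjusted p = 0.00412) and -0.25 ± 0.058 (adjusted p = 0.012). *Nalcn*, the sodium leak channel, and its partner *Unc80* had -0.30 ± 0.063 (adjusted p = 0.00552) and -0.30 ± 0.07 (adjusted p = 0.0126). *Calm2*, which encodes calmodulin, the calcium sensor of both channel families, had -0.16 ± 0.038 (adjusted p = 0.015). All libraries of the *Nipbl*+/- group lay below every *WT* library for *Fgf12*, *Nrcam*, *Cask*, *Rims1*, *Nalcn*, *Unc80* and *Calm2*. These genes were picked by a small adjusted p, so their separation is not a result apart from the tests. The share of all genes separated in this way was not counted.

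In *Wapl* delta/+ brains 3 of the 29 partner genes were lower, beside 1.45% of all genes and 376 of the 17303 that averaged 1 CPM or more. The 3 were *Ank3*, *Nalcn* and *Unc79*, with *Nalcn* at -0.23 ± 0.065 (adjusted p = 0.0926). In double heterozygotes 2 were lower, beside 2.46% of all genes and 715 of those 17303. The 2 were *Fgf12* at -0.17 ± 0.051 (adjusted p = 0.0974) and *Stac*. None of the 29 was called higher in a comparison with *WT* by edgeR. The transcription regulators *Rest* and *Rcor1*, which keep sodium channel genes silent outside neurons, each had an unadjusted p above 0.05 in all 3.

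Many channel genes are long, with a median span of 111 kb over the 33 genes, against 23.0 kb over 15454 tested genes with a RefSeq span that averaged 1 CPM or more. Over all these genes, fold change and span were related in the 3 comparisons, with Spearman's rho of -0.28 in *Nipbl*+/- brains, -0.32 in *Wapl* delta/+ brains and -0.26 in double heterozygotes. The values over the 33 channel genes were -0.21, -0.64 and -0.18, a description across genes, which share libraries and are not independent replicates. Pearson's r with the log2 span was -0.21, -0.29 and -0.08 over the 33 genes and -0.23, -0.22 and -0.21 over all genes. The 5 genes lower in *Wapl* delta/+ brains spanned 159 to 494 kb. The 5 genes higher in *Nipbl*+/- brains had a median of 36.2 kb and the 12 lower ones a median of 129 kb.

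Beside all genes of the same length, the share of channel genes called lower is given here with that of all genes. Of the 932 genes over 200 kb, 46.1% were called lower in *Nipbl*+/- brains, and 4 of the 8 channel genes of that length were. Of genes between 100 and 200 kb, 26.7% were called lower in *Nipbl*+/- brains, and 3 of 10 channel genes were. Between 50 and 100 kb it was 16.3% of genes and 2 of 6 channel genes. Of genes between 10 and 50 kb, 7.59% were called lower in *Nipbl*+/- brains, and 3 of 9 channel genes were, *Scn3b* and *Cacng5* among them. Of genes over 200 kb, 10.3% were lower in *Wapl* delta/+ brains, against 3 of 8 channel genes, *Cacna1a*, *Cacna1d* and *Cacna1e*. In double heterozygotes 20.6% of genes over 200 kb were lower and 0 of the 8 channel genes was, by edgeR, with DESeq2 calling *Cacna2d3* of them. The part of gene length in the channel changes was not tested beyond these values.

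**Figure D5:**
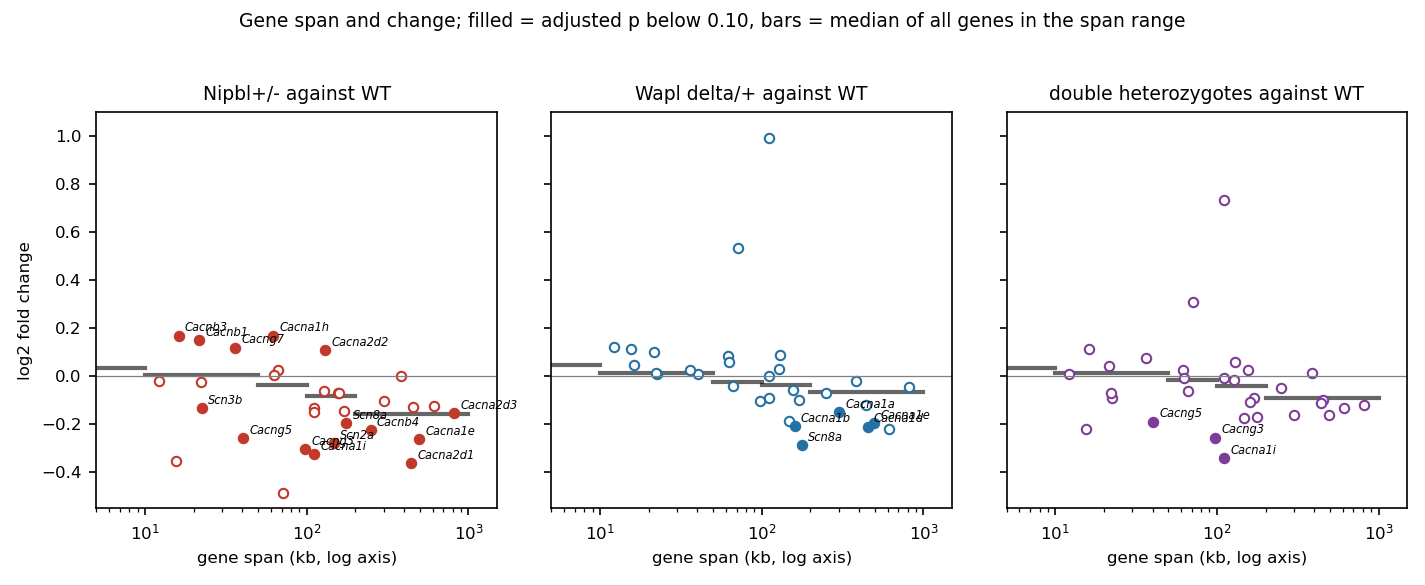
log2 fold change (y axis) against gene span (x axis, kb, log axis) of 31 channel genes in the 3 comparisons against WT, with filled points for an adjusted p below 0.10 and black bars for the median of all genes in each span range. The 5 filled points in Wapl delta/+ brains lie between 159 and 494 kb, and the 5 raised genes in Nipbl+/- brains lie at or below 130 kb.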

How the data were processed

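RNA of 21 whole brains was sequenced by the study as poly(A) libraries with paired reads of 101 bp. The authors deposited raw counts per gene in 1 table of 55335 genes. The submitters' processing notes name cutadapt 2.4, STAR 2.5.3a, featureCounts of Subread 1.6.4, MultiQC 1.9 and the mouse build mm10 (GRCm38.p6). The annotation release and the settings for strand and multiply mapped reads are not given in the sources used here, so reads of similar or overlapping genes may be shared.

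From these counts, groups were taken from the labels and each pair of groups was fitted with edgeR 4.0.16 (quasi-likelihood test, TMM scaling, limma 3.58.1, R 4.3.3), with the library as the replicate. The interaction was fitted over all 4 groups. Genes with at least 10 summed normalized counts were tested, 30552 in all, and 14366 genes had no count in any library. Adjusted p is Benjamini-Hochberg over all tested genes, with a threshold of 0.10. The SE of a fold change is its size divided by the square root of the test's F statistic. It was derived from the test and is not a separate estimate. All 40 channel genes passed the filter. Total counts were 25682566 to 35818767 per library. The tests set the difference between groups against the spread between embryos, whose litters the labels do not give. The scripts were tested on simulated counts with known changes.

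The members and the marker and partner lists were chosen with earlier results of these data known. Values of each *WT* and *Nipbl*+/- library are given for the 12 called members with the smallest adjusted p against WT. The same is given for *Scn1a*, *Scn2a*, *Scn3a*, *Scn8a*, *Cacna1a* and *Cacna1c*. For these genes, *Wapl* delta/+ brains and double heterozygotes are given by range and median. Values of at most 8 partner genes are given by the smallest adjusted p. Other members and partners named in small counts were chosen after their values were seen. Positions and spans come from a RefSeq table of GRCm38.p6, which matched 40 of 40 members by symbol. Alternatives were DESeq2 1.42.0, its size factors in edgeR, other filters on low counts, a stricter threshold, 1 fit of all groups, a replicate block, the *mt-Nd3* set as a term, the libraries of 1 set only, and each library left out in turn. No sequences are shown, and results for some genes of these lists, counted in the totals, are not reported here.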

Additional observations from a re-analysis of the deposited data

Results flagged for a closer look

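In 120 combinations of a channel gene and a group of 5 to 7 libraries, 13 had a highest or lowest library far from the rest by Dixon's criterion, where chance gives about 6, or 1 group in 20. Sensory ganglion channels accounted for 4 of them. *Wapl* delta/+ library 4 had 8.14 CPM of *Scn10a* against 0.464 to 1.96 CPM in the other *Wapl* delta/+ libraries, 3.87 CPM of *Scn7a* against 0.377 to 0.658 CPM, and 3.23 CPM of *Scn11a* against 0.580 to 1.46 CPM. *WT* library 3 had 1.81 CPM of *Scn10a* against 0.762 to 0.848 CPM. The ganglion marker sums of these libraries were 100.6 and 58.5 CPM, the highest of their groups.

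The muscle channel *Scn4a* stood at 0.244 CPM in *Wapl* delta/+ library 4 and at 0.274 CPM in double heterozygous library 3, where the summed level of the muscle markers was 71.9 and 76.1 CPM. *WT* library 3, with the highest muscle sum of 92.1 CPM, had 0.0936 CPM of *Scn4a*, and *Nipbl*+/- library 2 had 0.216 CPM at a muscle sum of 17.54 CPM. Its counts never passed 9 per library.

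Double heterozygous library 5 was low in 3 genes. It had 175 CPM of *Cacna1h* against 234 to 262 CPM in the rest of its group, 173 CPM of *Cacna1g* against 225 to 246 CPM, and 151 CPM of *Cacna2d2* against 187 to 208 CPM. The same library had the highest sum of neuronal markers, 5664 CPM.

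Of the remaining values, *Cacna1c* was 162 CPM in *Wapl* delta/+ library 2 against 107 to 130 CPM in the others. *Scn3a* was 81.5 CPM in *Wapl* delta/+ library 1 against 96.4 to 106 CPM. *Cacng7* was 119 CPM in *Wapl* delta/+ library 3 against 124 to 127 CPM. *Cacna1d* was 88.3 CPM in *WT* library 3 against 94.9 to 97.0 CPM.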

How the results depend on the processing

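Of 903 recomputed values of called or selected genes, 728 kept direction and side of the threshold, 141 lost the call, 30 gained one and 4 changed sign. Among the remaining members 0 to 12 changed sign in a setting, with 11 of 38 against *Nipbl*+/- without *Nipbl*+/- library 1 and 12 of 38 against *Wapl* delta/+ in the high *mt-Nd3* libraries. In *Nipbl*+/- brains all calls of the 17 genes were kept under DESeq2, under its size factors in edgeR, without the filter on low counts and with at least 1 CPM in 3 libraries. The count of 17 was 11 at an adjusted p below 0.05, 6 in 1 fit of all 4 groups, 8 with a replicate block and 7 in low *mt-Nd3* libraries only, and 9 to 23 with 1 library left out. In *Wapl* delta/+ brains the count of 5 was 9 by DESeq2, 3 at an adjusted p below 0.05, 0 in 1 fit of all 4 groups, 8 with a replicate block, 3 with the *mt-Nd3* set as a term, 0 in the low libraries only, and 0 to 7 with 1 library left out. In double heterozygotes against *WT* the count of 4 was 7 by DESeq2, 2 in 1 fit of all 4 groups, 2 in the low and 0 in the high libraries only, and 2 to 9 with 1 library left out. Against *Nipbl*+/- the count of 0 was 1 (*Cacna2d1*) with a replicate block and 0 to 0 with 1 library left out. Against *Wapl* delta/+ the count of 1 was 3 by DESeq2, 2 with at least 1 CPM in 3 libraries, 2 in 1 fit of all 4 groups, 0 in the low and 0 in the high libraries only, and 1 to 2 with 1 library left out. The interaction count of 0 was 4 by DESeq2 and 0 to 3 with 1 library left out. *Scn3a* in double heterozygotes against *WT* changed sign to 0.0032 with the replicate block, 0.0243 in high *mt-Nd3* libraries only, and -0.0312 to 0.0275 with 1 library left out. The cause of these shifts was not tested, and leaving out libraries also made the groups smaller. Of 25 pairs of libraries with the same replicate number, 7 correlated above 0.1 over 14542 genes, with a range of -0.279 to 0.472. Pairs with different numbers were not compared, so whether the numbers pair the libraries was not tested. Among the 7 genes below 1 CPM, *Scn4a* and *Cacng6* had at most 9 counts in a library. In a group left with 2 libraries, the spread was estimated mostly from the other group and all genes.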

Other observations

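The ratio of *Scn2a* to *Scn3a*, neighbouring genes whose balance is known to shift towards *Scn2a* as neurons mature, was compared between libraries without a test. As a log2 ratio it ran from -0.07 to 0.04 in the *WT* libraries. It was -0.22, -0.05 and -0.26 in the *Nipbl*+/- libraries, from -0.31 to 0.00 in *Wapl* delta/+ brains and from -0.30 to -0.05 in double heterozygotes. The highest value of each heterozygous group lay inside the *WT* range.

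Gamma genes that lie side by side were not called together. On chromosome 11, *Cacng5* was lower in *Nipbl*+/- brains (log2 fold change -0.26) and its neighbour *Cacng4* had a log2 fold change of 0.00. On chromosome 7, *Cacng7* was higher (0.12) and its neighbour *Cacng8* had -0.02. The difference between neighbours was not tested.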
